A study of Macaca mulatta with 9 samples.

Results

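Kidneys from pigs of the donor line 1KO.1TG, sampled early, were set against kidneys from pigs of the line 3KO.7TG, sampled late, both carried by rhesus macaques. The comparison takes 6 of the 9 libraries of the series, the 3 titled 1KO.1TG early R (early R from here on) and the 3 titled 3KO.7TG late R (late R), chosen by their titles alone, and all 767 probes. The 3 remaining libraries, 3KO.7TG early bx (early bx), entered only the shared estimate of the spread and a few side-by-side values. Every sample was total RNA from a formalin-fixed, paraffin-embedded renal biopsy and is labelled male; the series title speaks of xenokidneys, while the protocol text calls the tissue an allograft. The labels spell out neither R nor bx and give no altered gene, promoter, day, age or treatment, and they leave unsaid whether each sample of a group is another animal. The p-values therefore rest on the spread among these libraries alone, and that spread may be technical. Donor line and early against late change together in this comparison and cannot be told apart.

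In a pig organ placed in a primate, host antibodies bind pig sugars on the graft endothelium and can start complement and clotting there. Donor pigs are therefore bred without enzymes that make such sugars (KO, a knocked-out gene) and with human genes added (TG, a transgene) that restrain complement, clotting or phagocytes. CD46 and CD55 are membrane proteins that stop complement on a cell's own surface, thrombomodulin (THBD) turns thrombin from a clotting into an anticlotting enzyme, and CD47 binds SIRPα on macrophages and holds back engulfment. Rejection brings blood cells, cytotoxic lymphocytes, interferon-induced genes and MHC molecules into the tissue, and the panel, the nCounter Human Organ Transplant Panel, was built to read those programmes.

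The nCounter assay counts RNA molecules one by one through hybridised probes, without amplification. Most probes were designed on human transcripts, and the sources used here do not give their binding to pig, macaque or transgene RNA, and each value is read as the signal of a probe. Total counts ran from 803232 to 1620151 in 5 of the 6 libraries compared, while replicate 3 of early R held 21725, which is 51.4-fold below the median of the other 8 libraries of the series. It is termed the low-yield library. Probes for viral genes, which served as a background, reached at most 17 counts in any library, and 157 of the 767 probes exceeded this there, and 595 to 652 did in each of the other 5. After scaling, 17 counts stand for 297 scaled counts per 1e+06 (CPM) in the low-yield library and for 11.6 to 24.7 CPM in the other 5. The mean level of 9 genes of other organs, such as the lung surfactant gene SFTPC, was 6.92 log2 CPM in the low-yield library and 2.60 to 3.86 in the other 5, so low probes stand higher in it. Calls, list medians and most log2 fold changes are given without it and over all 9 libraries, and its raw count is printed for the probes on which a result turns. In brackets after a probe, the first log2 fold change, its SE and the adjusted p come from the fit without the low-yield library, and the value marked "over all 9" from the fit with it. Some probes held at most 17 counts in the low-yield library and had late R levels below 297 CPM. For these, the value over all 9 cannot show whether that library shared the difference. Levels below are trimmed-mean scaled CPM, and a log2 fold change is early R minus late R on that scale, with its moderated standard error (SE).

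Kidney transcripts were present. UMOD, made by the thick ascending limb, was read at 8942 and 726 CPM in early R replicates 1 and 2, at 452 counts in the low-yield library and at 12639.5, 3423 and 7043 CPM in late R. AQP2, the water channel of the collecting duct, was at 352 and 22.7 CPM, 90 counts and 794, 703 and 215 CPM in the same order. Both ran over a wide range within each group and overlapped between groups. NPHS1, the podocyte gene for nephrin, stayed at or near background, with at most 28 counts in any of the 6 libraries. The balance of macaque to pig signal, taken as the mean log2 ratio over GUSB, SDHA, STK11IP and UBB, which each have a probe marked for either species, was -1.75 ± 1.05 (SD, n = 3) in early R and -1.99 ± 0.80 (SD, n = 3) in late R. Without the low-yield library early R stood at -1.36 ± 1.13 (SD, n = 2). In that library the macaque probes of GUSB, SDHA and STK11IP held 19 to 24 counts, just above background. The groups overlapped (exact two-sided permutation p = 0.9; 3 against 3 cannot go below 0.1), and the sign of the difference turned without early R replicate 2 (-0.35) or late R replicate 1 (-0.22).

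Of 767 probes, 3 fell in early R and none rose in the fit over all 9 libraries (limma with Benjamini-Hochberg adjustment, 0.391% of probes called lower and 0% higher at 0.05). The 3 were CD46, CD47 and THBD, genes of complement, phagocyte and clotting control. Without the low-yield library the same 3 fell and PPBP, a platelet chemokine, rose (0.391% called lower and 0.13% higher). With early R replicate 2 left as the only early R library, 18 probes were called higher, among them the neutrophil genes CSF3R, IL1R2, LCN2, PADI4 and TREM1, and 5 lower (the same 3, C3 and CXCL12), and with replicate 1 as the only one, 0 and 3. At an unadjusted p under 0.05 there were 29 lower and 22 higher probes over all libraries (3.78% and 2.87%), and 26 lower and 42 higher without the low-yield library (3.39% and 5.48%, 8.87% together). All 3 libraries of one group lay clear of all 3 of the other for 51 probes on the lower side and 34 on the higher side (6.65% and 4.43%). With early R replicates 1 and 2 alone against late R these were 93 and 90 (12.1% and 11.7%). The median log2 fold change over all probes was -0.06 with and 0.05 without the low-yield library, and 47.3% and 53.3% of probes lay above 0.

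**Figure D1:**
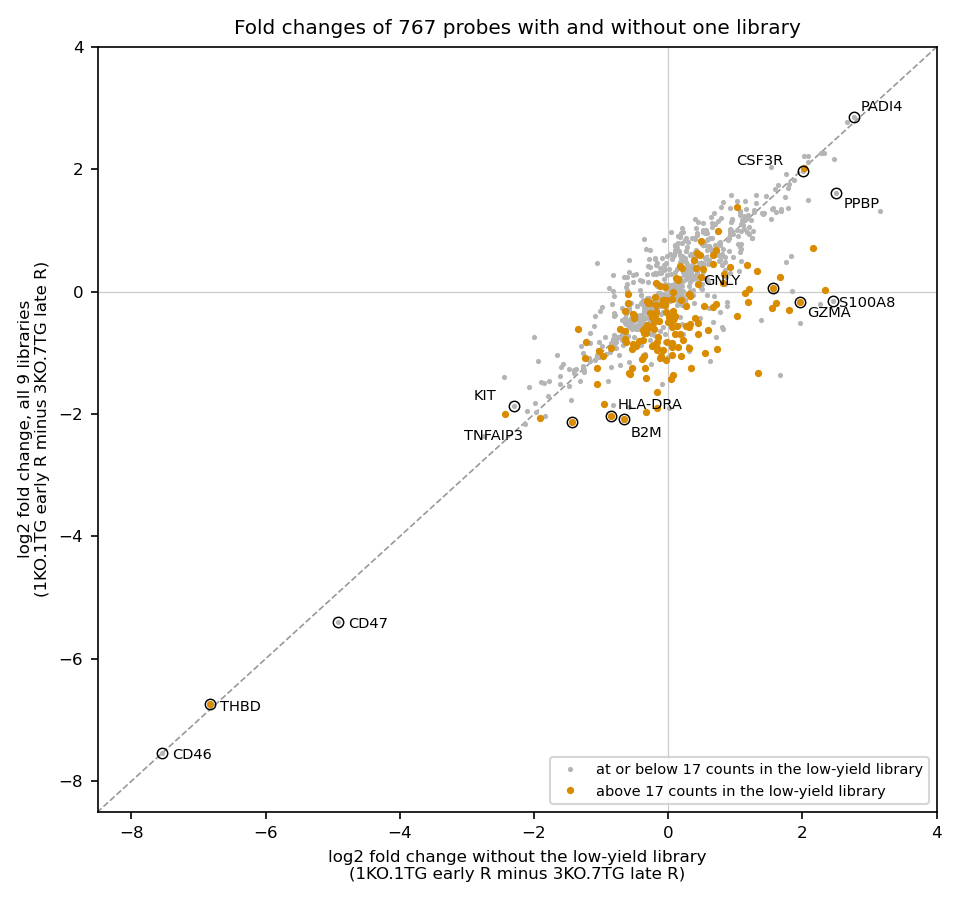
Log2 fold change of each of the 767 probes in the fit without the low-yield library (x axis) and over all 9 libraries (y axis), early R minus late R, with the line of equality dashed and the probes above 17 counts in the low-yield library in orange. CD46, THBD and CD47 lie far from the other probes and close to the line, while GZMA, GNLY and S100A8 lie near 0 on the y axis and above 1.5 on the x axis.

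CD46, CD47 and THBD were 3 of 6 measured probes of a list of genes believed, from knowledge of the field, to be added to multi-transgene donor pigs; the labels name none of them. CD46 was read at 98.3 and 152 CPM in early R replicates 1 and 2, at 11 counts in the low-yield library, and at 38466, 19312 and 17759 CPM in late R. CD47 was at 794 and 736 CPM, 12 counts and 34947, 21467 and 18443 CPM. THBD was at 44.6 and 264 CPM, 19 counts and 16801, 11821 and 10718 CPM. Every early R library lay far below every late R library for all 3 probes, and in replicates 1 and 2 all 3 stood above the 17-count background. Over all 9 libraries CD46 was 186-fold lower (log2 fold change -7.54 ± 0.54 SE, limma adjusted p = 5.00e-06), which compares with 107-fold for THBD (-6.75 ± 0.78, limma adjusted p = 3.53e-04) and 42.2-fold for CD47 (-5.40 ± 0.61, limma adjusted p = 3.53e-04). Without the low-yield library the folds were 187, 114 and 30.4 (limma adjusted p = 8.43e-05, 0.00104 and 4.03e-04). The fold of THBD moved most with single libraries, since replicate 1 held 44.6 CPM and replicate 2 held 264: its log2 value was -5.51 without replicate 1 and -7.74 without replicate 2 over the remaining libraries.

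The low-yield library alone gave bounds, which hold only on the trimmed-mean scale. Its factor there was 2.71, so scaling by total counts alone would give smaller folds. Its CD46 and CD47 counts were at or below 17, so on that scale the late R mean was at least 79.5-fold and at least 80.8-fold above it. The late R mean of THBD was 38.8-fold above its 19 counts. As shares of its own total, CD46 took 0.0506% and CD47 0.0552%. For CD47, 17 counts stand for 297 CPM in that library, below the level in early R replicates 1 and 2. As a share of all counts, the 3 probes together took 0.0935%, 0.0876% and 0.193% in early R and 7.96%, 4.92% and 3.86% in late R, a difference of means of -5.45 percentage points (exact two-sided permutation p = 0.1, the smallest 3 against 3 can give). Within late R the share was highest in replicate 1 and lowest in replicate 3, and the same order held for the CPM of each of the 3 probes. The early bx libraries, from the same donor line as late R, gave 45120.2, 23285 and 16357 CPM for CD46, and the log2 difference of late R minus early bx was -0.13 ± 0.59 for CD46, -0.01 ± 0.64 for CD47 and -0.51 ± 0.85 for THBD. None of the 767 probes was called between late R and early bx with limma (13 at an unadjusted p under 0.05, 1.69%).

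The other measured members of the list moved less. TNFAIP3, which shuts off NF-κB signalling, was at 1091 and 1806 CPM in early R replicates 1 and 2, 24 counts in the low-yield library and 6786, 3508 and 2589.6 CPM in late R, with no overlap. Its log2 fold change was -2.13 ± 0.67 over all libraries and -1.44 ± 0.54 without the low-yield library, and it did not pass (limma adjusted p = 0.645 and 0.527). CD55 was at 203 and 728 CPM, 11 counts and 204, 579.8 and 228 CPM, so the groups overlapped, with replicate 2 the highest library on either side. Its log2 fold change of 0.39 ± 0.63 without the low-yield library had a 95% interval of -1.02 to 1.79 (limma adjusted p = 0.923) and turned to -0.53 without replicate 2. CD59, which blocks the membrane attack complex, was at 595 and 1269 CPM, 10 counts and 756, 897 and 740.4 CPM, with a 95% interval of -0.78 to 1.12 for its log2 fold change. Both intervals reach past a 2-fold higher level, so a moderate difference could not be detected with these libraries, and neither comes near the size seen for CD46.

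**Figure D2:**
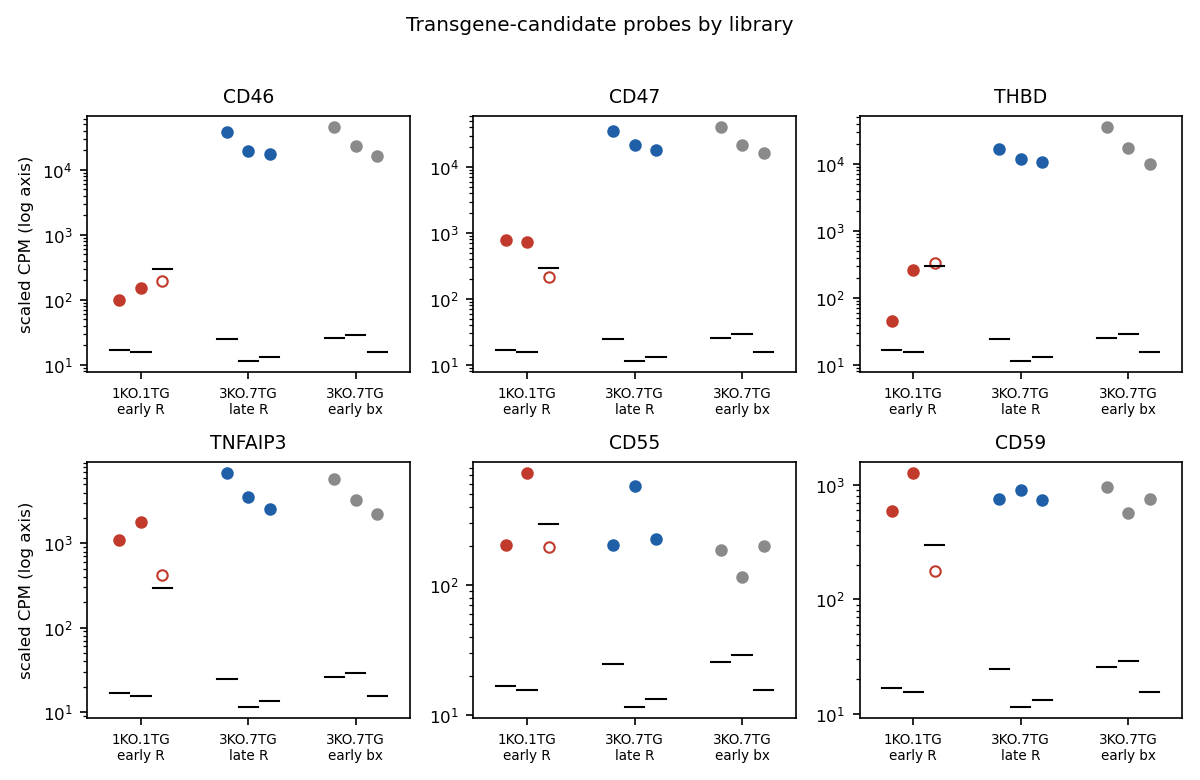
Scaled CPM (log axis) of the 6 transgene-candidate probes in every library, early R in red, late R in blue and early bx in grey, replicates 1 to 3 from left to right. The open red point is the low-yield library, and the short black bars mark what 17 counts, the highest viral probe, stand for in each library. CD46, CD47 and THBD are far lower in all early R libraries than in any 3KO.7TG library, whereas CD55 and CD59 overlap.

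Platelet genes were the other place where a call was reached, with trimmed-mean scaling only when the low-yield library was left out. PPBP, released from platelet granules, was at 1239 and 1225 CPM in early R replicates 1 and 2 and at 160.2, 324 and 206 CPM in late R, while the low-yield library held 5 counts, within background. Without that library PPBP rose 5.68-fold (log2 fold change 2.51 ± 0.43, limma adjusted p = 0.0328), and with it the value was 1.62 ± 0.75 (limma adjusted p = 0.727). Over all 9 libraries scaled by total counts alone, PPBP was called. With the low-yield library left out, the call ended when either remaining early R replicate was also left out (limma adjusted p = 0.054 without replicate 1 and 0.323 without replicate 2), without late R replicate 1 or 3 (0.156 and 0.249) and without early bx replicate 1 or 2 (0.0536 and 0.0726). Over all 8 libraries that could be left out, its log2 fold change stayed between 2.25 and 2.79; it also kept its sign, without a call, under scaling on housekeeping probes (0.171), pig reference probes (0.986) or total counts (0.0509), with the values as deposited (0.876), and in a fit of the 2 groups alone (0.0885). PF4, another platelet chemokine, was at 441 and 1658 CPM against 124, 400.3 and 168 CPM in late R, higher in both early R replicates than in any late R library (2.09 ± 0.64, limma adjusted p = 0.354, 1.51 over all 9). MPIG6B, a receptor of megakaryocytes and platelets, was at 34.04 and 122 CPM against 19.1, 14.9 and 8.74 CPM (2.33 ± 0.64, limma adjusted p = 0.273, 2.27 over all 9), its late R values lying close to background.

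Of 11 measured coagulation and platelet genes, 9 lay above 0 without the low-yield library, with a median of 1.31, and 8 with it, with a median of 1.06. Leaving out 1 more library moved the first median between 0.01 and 2.51, the lowest without early R replicate 2 and the highest without early R replicate 1, and leaving out 1 of all 9 moved the other between 0.18 and 1.34. THBD was the only one called lower and PPBP the only one called higher. VWF, the endothelial factor that tethers platelets, pointed the other way from the platelet genes, at 40.8 and 131 CPM in early R replicates 1 and 2 and 146, 371 and 144 CPM in late R (-1.41 ± 0.73, limma adjusted p = 0.567, -1.34 over all 9). In bulk tissue, fewer cells of a type and less RNA per cell cannot be told apart, here and in all groups that follow.

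No neutrophil gene was called, but the list stood highest among all lists. Without the low-yield library 12 of 12 members lay above 0 (median 1.90, against 0.05 over all probes), 6 of them at an unadjusted p under 0.05 and 5 with no overlap, where 5.48% and 11.7% of all probes did so. With it 10 of 12 lay above 0 (median 1.5), although none of the members exceeded 17 counts in that library. CSF3R, through which G-CSF acts on granulocytes, was at 132 and 363 CPM in early R replicates 1 and 2, 13 counts in the low-yield library and 68.5, 64.4 and 41.4 CPM in late R (2.00 ± 0.56 without and 1.98 ± 0.53 with that library, limma adjusted p = 0.273 and 0.515). CEACAM3, a granulocyte receptor for bacteria, was at 157 and 293 CPM against 95.3, 50.5 and 58.9 CPM (1.79 ± 0.54, limma adjusted p = 0.354, 1.69 over all 9).

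Early R replicate 2 held the highest neutrophil values. PADI4, the enzyme that citrullinates histones when neutrophils cast nets, was at 468 CPM in replicate 2, at 43.6 in replicate 1 and at 38.8, 24.1 and 11.8 CPM in late R (2.77 ± 0.95, limma adjusted p = 0.48, 2.85 over all 9). S100A8, a subunit of the calprotectin complex of granulocytes and monocytes, was at 16549.5 CPM in replicate 2 and 1761 in replicate 1, against 1021, 3254 and 321 CPM in late R, so replicate 1 overlapped with late R (2.45 ± 1.01, limma adjusted p = 0.53; -0.15 with the low-yield library, which held 6 counts). Summed over the 12 probes the level was 5644 and 53936 CPM in early R replicates 1 and 2 and 3966, 10180.3 and 1747 CPM in late R. Early R replicate 2 was thus the highest library, and late R replicate 2 lay above early R replicate 1 in the sum, which is dominated by few strong probes. IL1R2, a decoy receptor for interleukin 1, was at 36.9 CPM in replicate 1 and 389 in replicate 2, against 31.8, 34.7 and 15.6 CPM in late R (2.28 ± 0.98, limma adjusted p = 0.53, 2.27 over all 9). Outside the list, ADAM8, a metalloproteinase of leukocytes, had the same shape, at 63.8 and 367 CPM against 55.8, 59.1 and 29.2 CPM (1.80 ± 0.71, limma adjusted p = 0.527, 1.75 over all 9). SIGLEC5, an inhibitory receptor of myeloid cells, was at 65.7 and 147 CPM against 50.1, 55.1 and 26.97 CPM (1.28 ± 0.52, limma adjusted p = 0.53, 1.31 over all 9). The list median was 3.08 without the low-yield library and replicate 1, and 0.50 without the low-yield library and replicate 2.

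Several cytotoxic genes were higher in both well-measured early R libraries without reaching a call. PRF1, the pore-forming protein of killer cells, was at 262 and 252 CPM in early R and 107, 90.1 and 101 CPM in late R, a narrow spread on both sides (1.43 ± 0.36, limma adjusted p = 0.273; 1.28 ± 0.40 with the low-yield library). GNLY, granulysin, was at 4916 and 2961 CPM against 1553, 1421 and 1044 CPM (1.57 ± 0.38, limma adjusted p = 0.273, 0.06 over all 9). GZMA, the protease granzyme A, was at 6366 and 5240.4 CPM against 1210.4, 1429 and 2044 CPM (1.97 ± 0.55, limma adjusted p = 0.273, -0.17 over all 9). The low-yield library could not show whether it shared this pattern. Its 28 counts of GNLY and 18 of GZMA stood just above background, and with it the log2 fold changes were 0.06 and -0.17. Against the late R mean, GNLY stood at -1.45 and GZMA at -2.28 log2 units in that library. EEF1A1 (-1.43) and GAPDH (-2.06) lay below the late R mean there as well, while UMOD (0.19) and LAMP1 (0.51) lay above it. So did GZMK (0.95) and KLRK1 (0.13), at 20 counts each. The cause was not tested. GZMH was at 94.5 and 123 CPM against 37.4, 62.4 and 53.6 CPM (1.13 ± 0.44, limma adjusted p = 0.527, 1.03 over all 9). NKG7, a granule membrane protein, was at 2348 and 1231 CPM against 1047, 802 and 1026 CPM (0.88 ± 0.40, limma adjusted p = 0.53, -0.16 over all 9). Of 24 NK and cytotoxic genes, 18 lay above 0 without the low-yield library (median 0.47), 6 at an unadjusted p under 0.05 on the higher side and none on the lower, where 53.3% of all probes lay above 0 and 5.48% and 3.39% passed; with it 17 lay above 0 (median 0.26).

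**Figure D3:**
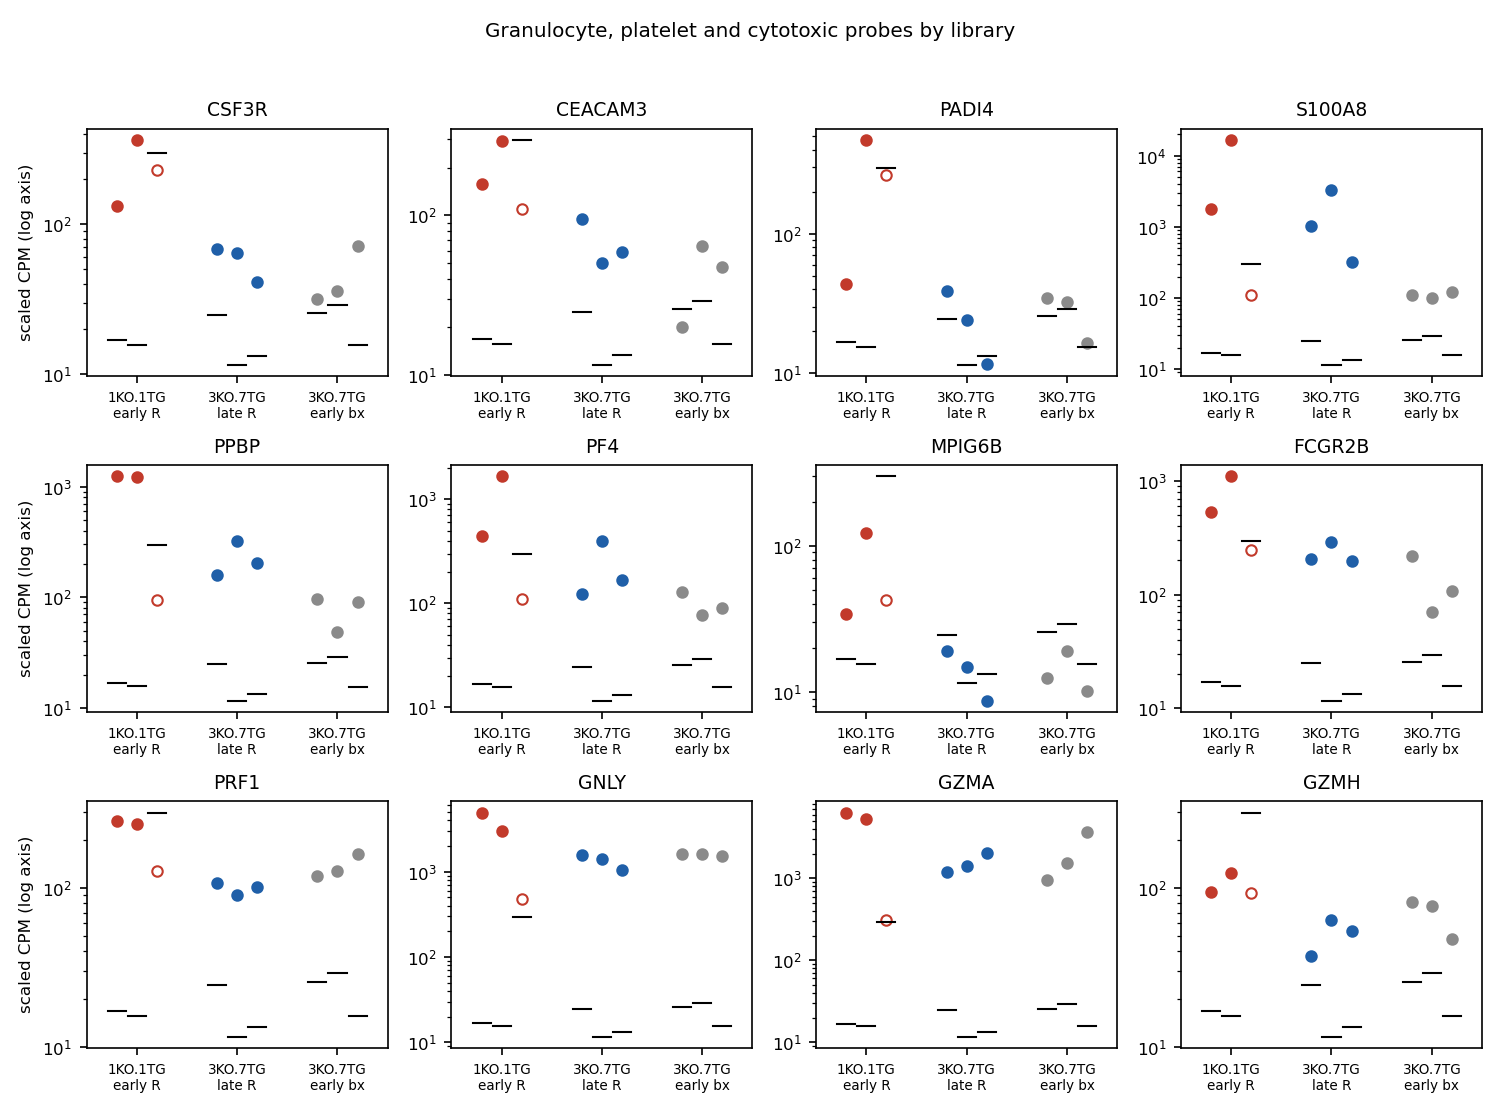
Scaled CPM (log axis) of granulocyte (CSF3R, CEACAM3, PADI4, S100A8), platelet (PPBP, PF4, MPIG6B), Fc receptor (FCGR2B) and cytotoxic (PRF1, GNLY, GZMA, GZMH) probes in every library, with groups, open point and background bars as for the transgene candidates. The 2 filled early R points lie above all late R points for each probe except S100A8, where replicate 1 falls among them, and the open point of the low-yield library lies below or near its own background bar.

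T cell genes did not follow the cytotoxic genes. Of 25 measured, 18 lay below 0 without the low-yield library (median -0.25) and 16 with it (median -0.21), and none passed. CD3E, a chain of the T cell receptor complex, was at 184 and 404 CPM in early R replicates 1 and 2 and 219, 358 and 549 CPM in late R, with overlap. CD8A, the coreceptor of killer T cells, was at 112 and 75.3 CPM against 78.3, 59.1 and 93.8 CPM. TRAT1, an adaptor of the T cell receptor, was at 39.8 and 40.5 CPM against 83.99, 87.5 and 116 CPM (-1.20 ± 0.41, limma adjusted p = 0.471, -1.10 over all 9). THEMIS, needed for thymocyte selection, was at 16.8 and 21.8 CPM against 41.6, 37.95 and 101 CPM (-1.47 ± 0.58, limma adjusted p = 0.527, -1.27 over all 9). Both lay lower in the 2 early R libraries than in any late R library, with the early R values of THEMIS close to background. NFATC2, a transcription factor of activated T cells outside the list, was at 109.8 and 91.3 CPM against 198, 287 and 248 CPM (-1.24 ± 0.38, limma adjusted p = 0.354, -1.08 over all 9). Checkpoint and costimulation genes had a median of 0.12 without and 0.06 with the low-yield library, VSIR, an inhibitory ligand of myeloid cells, standing at 353 and 529 CPM against 159, 309 and 152 CPM (1.17 ± 0.49, limma adjusted p = 0.53, 0.98 over all 9).

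Antibody genes were uneven. IGKC, the kappa light chain constant region, was at 5369.5 and 28007 CPM in early R replicates 1 and 2, 27 counts in the low-yield library and 1305, 2824 and 4192 CPM in late R (2.34 ± 0.89, limma adjusted p = 0.527; 0.03 with the low-yield library). The plasma cell markers SDC1 and TNFRSF17 were low, at 20.6 and 31.6 and at 35.00 and 100.2 CPM in early R and at 7.76, 4.29 and 18.6 and at 17.6, 12.9 and 48.2 CPM in late R. BLNK, the adaptor that carries B cell receptor signals, lay the other way, at 202 and 151 CPM against 467, 443 and 392 CPM (-1.27 ± 0.41, limma adjusted p = 0.439, -1.25 over all 9), as did CD24, carried by B cells and by tubular epithelium, at 272 and 569 CPM against 2018, 919.8 and 724 CPM (-1.45 ± 0.59, limma adjusted p = 0.53, -1.78 over all 9). No member of the 23 B and plasma cell genes was called, and their median was 0.35 without and 0.21 with the low-yield library.

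Fc receptors and receptors that restrain phagocytes gave a median of 0.18 without and -0.93 with the low-yield library, and 3 of 10 had early R replicates 1 and 2 above all of late R (11.7% of all probes). FCGR2B, the inhibitory Fc gamma receptor, was at 531 and 1102 CPM against 207, 289 and 197 CPM in late R (1.78 ± 0.50, limma adjusted p = 0.273; 1.36 ± 0.59 with the low-yield library). LILRB2, an inhibitory receptor for MHC class I on monocytes, was at 579 and 636 CPM against 284, 339 and 189.6 CPM (1.25 ± 0.39, limma adjusted p = 0.38, 0.88 over all 9). LILRB4 was at 304 and 362 CPM against 191, 23.4 and 157 CPM, a range set by late R replicate 2 alone (2.02 ± 0.94, limma adjusted p = 0.532, 2.02 over all 9). CD47 was the single called member of this list of 10, of which 7 lay above 0 without and 4 with the low-yield library.

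Most monocyte and macrophage genes lay above 0 without the low-yield library and below 0 with it. Without it 15 of 24 lay above 0 (median 0.19), where 53.3% of all probes did so. With it 7 did (median -0.51), where 47.3% of all probes did so, with no member called either way. With 1 more library left out the first median ran between -0.12 and 0.68. ITGAM, an integrin chain of myeloid cells, was at 885 and 391 CPM against 212, 262 and 288 CPM (1.26 ± 0.50, limma adjusted p = 0.527, 0.89 over all 9). CD68, a lysosomal protein of macrophages, was at 1620.1 and 2119 CPM against 1062, 1377 and 1202 CPM (0.66 ± 0.46, limma adjusted p = 0.715, -0.49 over all 9). ADAMDEC1, a metalloproteinase of macrophages and dendritic cells, was at 818 and 419 CPM against 222, 115 and 266 CPM (1.69 ± 0.75, limma adjusted p = 0.53, 1.31 over all 9). CD14, the lipopolysaccharide coreceptor, overlapped and changed sign with the low-yield library (0.62 ± 0.53 without and -1.14 ± 0.99 with it), at 1793 and 6284 CPM, 13 counts and 1881, 2899 and 2109 CPM. CD163, the haemoglobin scavenger receptor, overlapped, at 1914 and 3519 CPM against 909.7, 4138 and 1187 CPM. MS4A7, a macrophage membrane protein, was lower, at 1397 and 2274 CPM against 2146, 4435 and 3513 CPM (-0.82 ± 0.42, limma adjusted p = 0.567, -1.85 over all 9). AXL, a receptor tyrosine kinase by which phagocytes take up dying cells, was at 223 and 231 CPM in early R and 661, 675 and 619.6 CPM in late R, 2 tight groups far apart (-1.48 ± 0.37 without and -1.55 ± 0.43 with the low-yield library), yet short of a call (limma adjusted p = 0.273 and 0.549).

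MHC genes lay mostly below 0 and none passed; HLA genes are alike in sequence, so which of them a probe reads is uncertain. HLA-F, a non-classical class I chain, was at 135 and 118 CPM against 255, 224 and 266 CPM, with no overlap (-0.93 ± 0.37, limma adjusted p = 0.527, -1.01 over all 9). B2M, the light chain of class I, was at 18422 and 39989 CPM, 133 counts and 29832, 56946 and 50214 CPM, and its log2 fold change went from -0.66 ± 0.47 to -2.08 ± 0.89 when the low-yield library was added. Without that library 8 of 9 class I genes lay below 0 (median -0.35) and with it 7 (median -0.58). With 1 more library left out the first median ran between -0.53 and 0.05, its sign turning without early R replicate 2.

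Class II was similar. HLA-DRA, the alpha chain of HLA-DR, was at 19264 and 23619.8 CPM against 32182, 41681 and 45883 CPM (-0.85 ± 0.41 without and -2.03 ± 0.77 with the low-yield library, limma adjusted p = 0.543 and 0.727). HLA-DMB, which helps load peptide, was at 466 and 321 CPM against 749, 724 and 872 CPM (-0.97 ± 0.44, limma adjusted p = 0.53, -1.04 over all 9), whereas its partner HLA-DMA was at 2812 and 2499.7 CPM against 637, 897 and 2285 CPM (1.32 ± 0.83, limma adjusted p = 0.666, 0.34 over all 9), so the 2 chains of one dimer pointed apart. Of 11 class II genes 8 lay below 0 without the low-yield library (median -0.33) and 10 with it (median -1.04). With it and scaling on housekeeping probes, the median was -0.53. Antigen processing genes had medians of 0.08 and -0.14; TAPBP, tapasin, was at 724 and 685 CPM against 429.8, 378 and 411 CPM (0.84 ± 0.43, limma adjusted p = 0.567, 0.35 over all 9).

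Most type I interferon-induced genes lay below 0 in both fits, again with no call. Of 16 measured, 13 lay below 0 without the low-yield library (median -0.54) and 13 with it (median -0.85), and 5 had early R replicates 1 and 2 below all of late R, as did 12.1% of all probes. XAF1, a proapoptotic interferon target, was at 109 and 45.9 CPM against 126, 457 and 177 CPM (-1.62 ± 0.63, limma adjusted p = 0.527, -1.51 over all 9). MX2, an antiviral GTPase, was at 95.4 and 74.4 CPM against 126, 409.5 and 166 CPM (-1.27 ± 0.57, limma adjusted p = 0.53, -1.25 over all 9). IFI44 was at 181 and 148 CPM against 188, 896 and 484 CPM (-1.38 ± 0.64, limma adjusted p = 0.532, -1.26 over all 9). Late R replicate 2 was the highest late R library for all 3, and replicate 1 of late R lay close to early R. IFI27 showed the same library even more, at 1301 and 389.7 CPM in early R and 1531, 11425 and 1189 CPM in late R (-1.92 ± 0.91, limma adjusted p = 0.536, -2.07 over all 9). Without the low-yield library and late R replicate 2 the list median was -0.27.

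SOCS1, a feedback inhibitor of interferon signalling, was at 238 and 236 CPM against 383, 394 and 474 CPM (-0.77 ± 0.36, limma adjusted p = 0.536, -0.76 over all 9). Interferon-gamma-induced genes as a list stood at a median of -0.04 without and -0.71 with the low-yield library. IDO1, the tryptophan-degrading enzyme, stood on the other side of 0 from SOCS1, at 7516 and 9131 CPM against 3504, 2157 and 3273 CPM (1.55 ± 0.76, limma adjusted p = 0.553; -0.27 with the low-yield library). TNFSF10, the death ligand TRAIL, was at 163 and 84.2 CPM against 181, 291 and 270.1 CPM (-1.03 ± 0.45, limma adjusted p = 0.53, -1.07 over all 9). TLR3 and TLR7, sensors of viral RNA, were at 17.7 and 10.2 and at 12.9 and 10.2 CPM in early R, at or near background, and at 62.8, 40.6 and 55.8 and at 28.9, 45.2 and 32.3 CPM in late R, above it (limma adjusted p = 0.453 and 0.527).

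**Figure D4:**
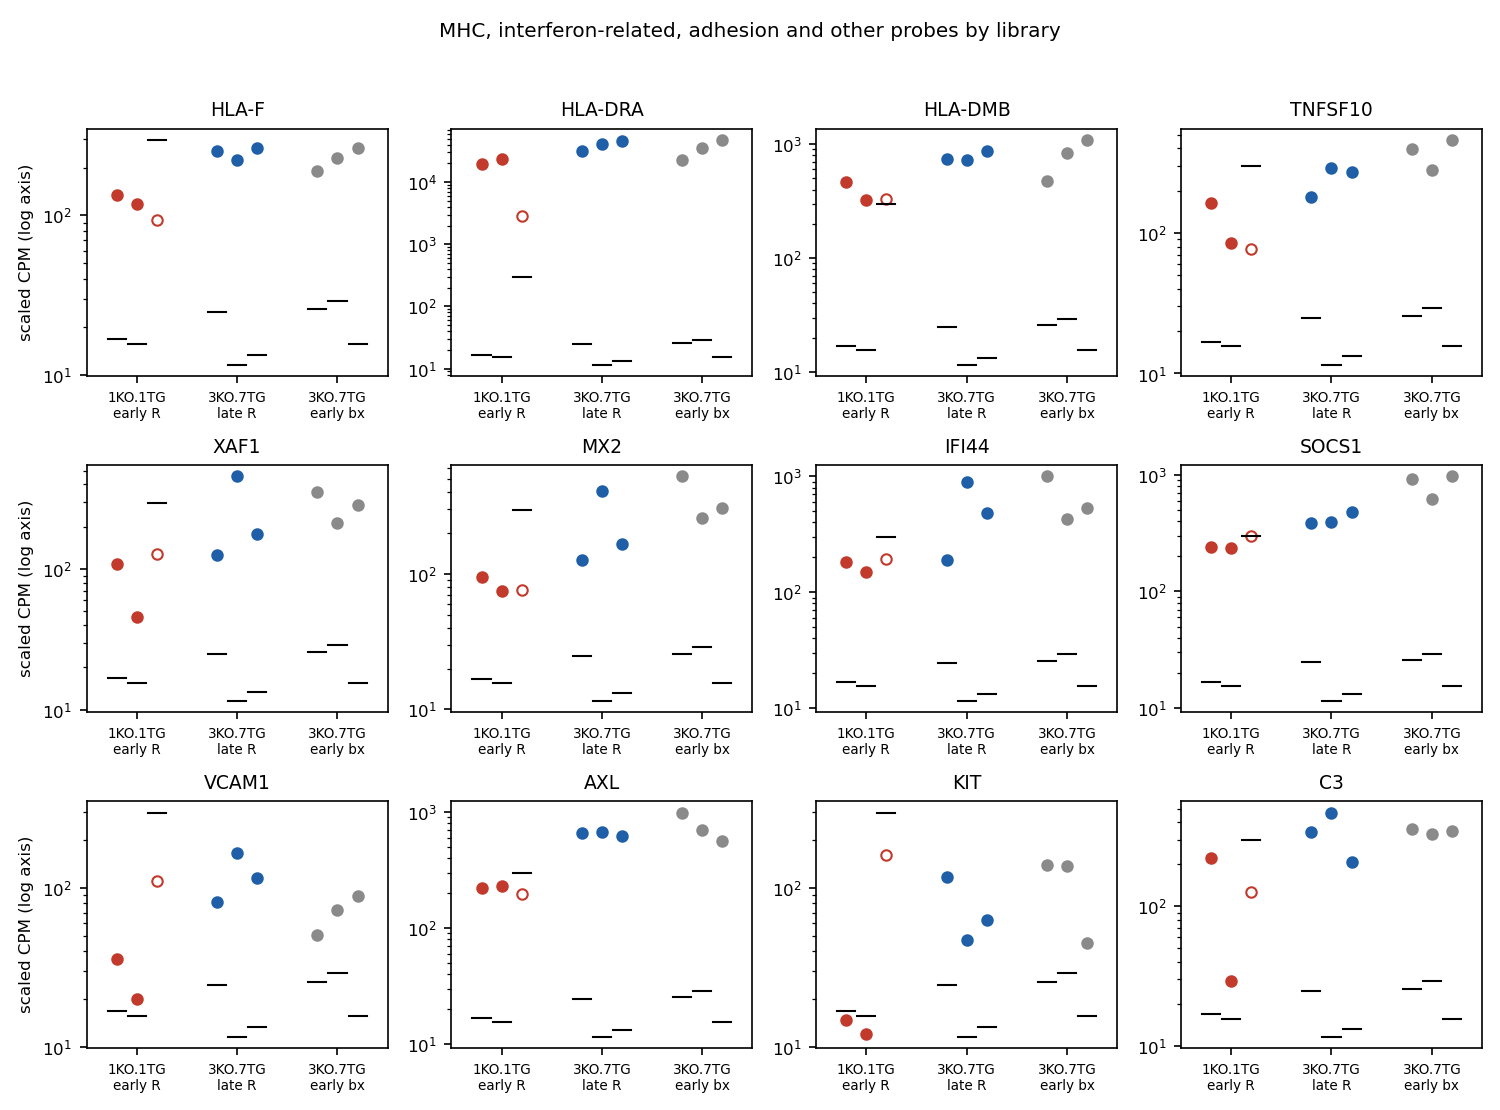
Scaled CPM (log axis) of MHC (HLA-F, HLA-DRA, HLA-DMB), death ligand (TNFSF10), interferon-related (XAF1, MX2, IFI44, SOCS1) and other (VCAM1, AXL, KIT, C3) probes in every library, with groups, open point and background bars as for the transgene candidates. The 2 filled early R points lie below all late R points for each probe but C3, and for XAF1, MX2 and IFI44 the middle late R point, replicate 2, is the highest of its group.

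Endothelial and adhesion genes split. VCAM1, the adhesion molecule induced on activated endothelium and on injured tubules, was at 35.96 and 20.04 CPM in early R replicates 1 and 2 and 81.2, 166 and 115 CPM in late R (-2.10 ± 0.52 without and -1.95 ± 0.56 with the low-yield library, limma adjusted p = 0.273 and 0.559), its early R values close to background. ICAM1, which binds leukocyte integrins, lay the other way, at 368 and 651 CPM against 325, 199 and 275 CPM (0.96 ± 0.45, limma adjusted p = 0.532, 0.57 over all 9). Of 22 endothelial genes 16 lay below 0 without the low-yield library (median -0.25) and 12 with it (median -0.23). PECAM1, found on endothelium and on leukocytes, overlapped, at 772 and 831 CPM against 699, 1072 and 895 CPM. CDH5, the cadherin of endothelial junctions, was at 14.9 and 10.2 CPM against 35.99, 68.3 and 9.50 CPM, low in early R and in late R replicate 3. No member exceeded 17 counts in the low-yield library. ROBO4, a receptor of endothelial cells, was at 1.44 and 7.57 CPM against 43.1, 33.99 and 4.94 CPM (at least 1.69-fold lower, limma adjusted p = 0.53), within background in early R and in late R replicate 3. Where early R replicates 1 and 2, or all of late R, lay at or below 17 counts, the fold is a bound on the ratio of means. It was taken from the mean CPM of the other group over the mean CPM that 17 counts stand for. Single libraries of the other group can still lie within background. The 12 endothelial activation genes had medians of -0.08 without and -0.07 with the low-yield library.

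Complement components gave no call. C3, the component on which all complement pathways meet, was at 222 and 28.9 CPM in early R, a wide gap between its replicates 1 and 2, and 341, 471 and 209 CPM in late R (-1.98 ± 0.73, limma adjusted p = 0.527, -1.97 over all 9). CFB, factor B of the alternative pathway, was at 27.3 and 15.6 CPM against 27.5, 249 and 47.5 CPM (-1.79 ± 1.07, limma adjusted p = 0.658, -1.70 over all 9). CFI, the protease that inactivates C3b, was at 21.6 and 12.9 CPM against 31.8, 52.5 and 40.6 CPM (-1.27 ± 0.48, limma adjusted p = 0.527, -1.0 over all 9). C5AR1, the receptor for C5a on myeloid cells, was at 1249 and 3034 CPM against 887, 1901 and 979.7 CPM with overlap. The 11 components had a median of -0.18 without and -0.46 with the low-yield library, and CD46 was the single called member of 7 regulators.

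Among the mast cell genes, the receptors KIT and FCER1A were at or near background in early R replicates 1 and 2, and HDC was at background in both groups. KIT, the stem cell factor receptor of mast cells, was at 14.9 and 12.02 CPM against 116, 47.2 and 62.7 CPM (at least 4.66-fold lower, limma adjusted p = 0.354). FCER1A, a chain of the IgE receptor, was at 10.1 and 11.1 CPM against 17.6, 94.7 and 42.2 CPM (limma adjusted p = 0.527). Late R replicate 1 was itself within background, where 17 counts stand for 24.7 CPM. The bound of at least 3.18-fold lower therefore holds for the late R mean, carried by replicates 2 and 3, and not for each library. HDC, the enzyme that makes histamine, was at 12.9 and 11.1 CPM against 7.76, 4.29 and 12.5 CPM, and CD209, a lectin of dendritic cells and macrophages, lay on the higher side, at 44.6 and 80.6 CPM against 17.6, 73.6 and 25.5 CPM (0.90 ± 0.73, limma adjusted p = 0.77, 0.88 over all 9). KITLG, the ligand of KIT and outside the lists (chosen after its values were seen), was at 14.9 and 20.9 CPM against 48.7, 50.5 and 94.6 CPM. The 11 dendritic and mast cell genes had a median of -0.59 in the fit that left out the low-yield library and of 0.23 in the fit that held it, none of them being above 17 counts there.

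Several epithelial injury and stress genes stood high in early R replicates 1 and 2, with no call. KRT8, a keratin of simple epithelia raised in injured tubules, was at 18581 and 34089 CPM against 12810.3, 4722 and 3301 CPM in late R (2.16 ± 0.59, limma adjusted p = 0.273; 0.72 with the low-yield library and its 124 counts). CDKN1A, the cell cycle inhibitor p21, was at 2405 and 3158 CPM against 1253, 978 and 574 CPM (1.67 ± 0.44, limma adjusted p = 0.273; 0.23 with it). SOD2, the mitochondrial superoxide dismutase, was at 6380.2 and 15045 CPM against 3912, 2728 and 3463 CPM (1.60 ± 0.54, limma adjusted p = 0.471; -0.19 with it). MT1A, a metal-binding metallothionein, was at 49.4 and 32.5 CPM against 19.1, 7.59 and 7.98 CPM, of which the late R values were at background (at least 2.48-fold higher, limma adjusted p = 0.273). The 10 stress genes had 9 above 0 when the low-yield library was left out (median 0.86) and 7 with it (median 0.23), and the 9 tubular injury genes had 6 and 7 (medians 0.92 and 0.55). KRT8 and CDKN1A are in the tubular list and CDKN1A in both. The tubular list of 9 was split when the low-yield library was left out. At an unadjusted p under 0.05, 2 members were higher and 2 lower, as were 5.48% and 3.39% of all probes. Without overlap there were 2 and 2, where 11.7% and 12.1% of all probes did so. Its lower members included VCAM1 (-2.10 ± 0.52) and CD24 (-1.45 ± 0.59). Kidney parenchyma genes had medians of 0.14 and 0.20 over 14 probes, of which APOE, at 9056 and 9530.0 CPM against 5836, 5997 and 5467 CPM, had the smallest p without the low-yield library (limma adjusted p = 0.56).

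Chemokine, interleukin, matrix, Toll-like receptor, NF-κB and JAK-STAT lists held no call. Their medians without the low-yield library were 0.26 for 37 chemokines and receptors, 0.16 for 44 interleukins and receptors, 0.14 for 25 matrix genes and 0.18 for 26 NF-κB and TNF family genes. Toll-like receptors and their adaptors (10 probes) had a median of 0.27 and JAK-STAT and SOCS genes (13 probes) one of -0.12, and the 7 housekeeping probes one of -0.19. With the low-yield library the medians of these lists ran from -0.42 for matrix to 0.43 for interleukins. The proliferation list held 1 measured gene, MCM6, a subunit of the replicative helicase, at 1019 and 522 CPM against 1165, 564 and 1087 CPM. TNFAIP6, a secreted inhibitor of inflammation, was at 32.1 and 143 CPM against 30.3, 14.2 and 11.8 CPM (2.08 ± 0.72, limma adjusted p = 0.481, 2.22 over all 9). NFKBIA, the inhibitor that holds NF-κB in the cytoplasm, was at 763 and 2134 CPM against 613, 523 and 621 CPM (1.17 ± 0.47, limma adjusted p = 0.527, 0.44 over all 9). MMP9, a gelatinase of neutrophils, was at 849 and 4705 CPM against 773, 536 and 548 CPM (1.75 ± 0.76, limma adjusted p = 0.53, 0.49 over all 9). TIMP1, an inhibitor of metalloproteinases, was at 991 and 8816 CPM against 760.1, 2385 and 906 CPM with overlap, and its log2 fold change was 1.38 ± 0.84 without and -0.47 ± 1.25 with the low-yield library, which held 5 counts. NOTCH1, a receptor of cell fate signalling, lay higher in both well-measured early R libraries, at 108 and 104 CPM against 65.6, 52.5 and 39.1 CPM (1.10 ± 0.40, limma adjusted p = 0.527, 1.17 over all 9). COL1A1, a fibrillar collagen chain, was at 14.9 and 5.79 CPM against 20.5, 603 and 16.3 CPM, late R replicate 2 being alone at a high level.

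**Figure D5:**
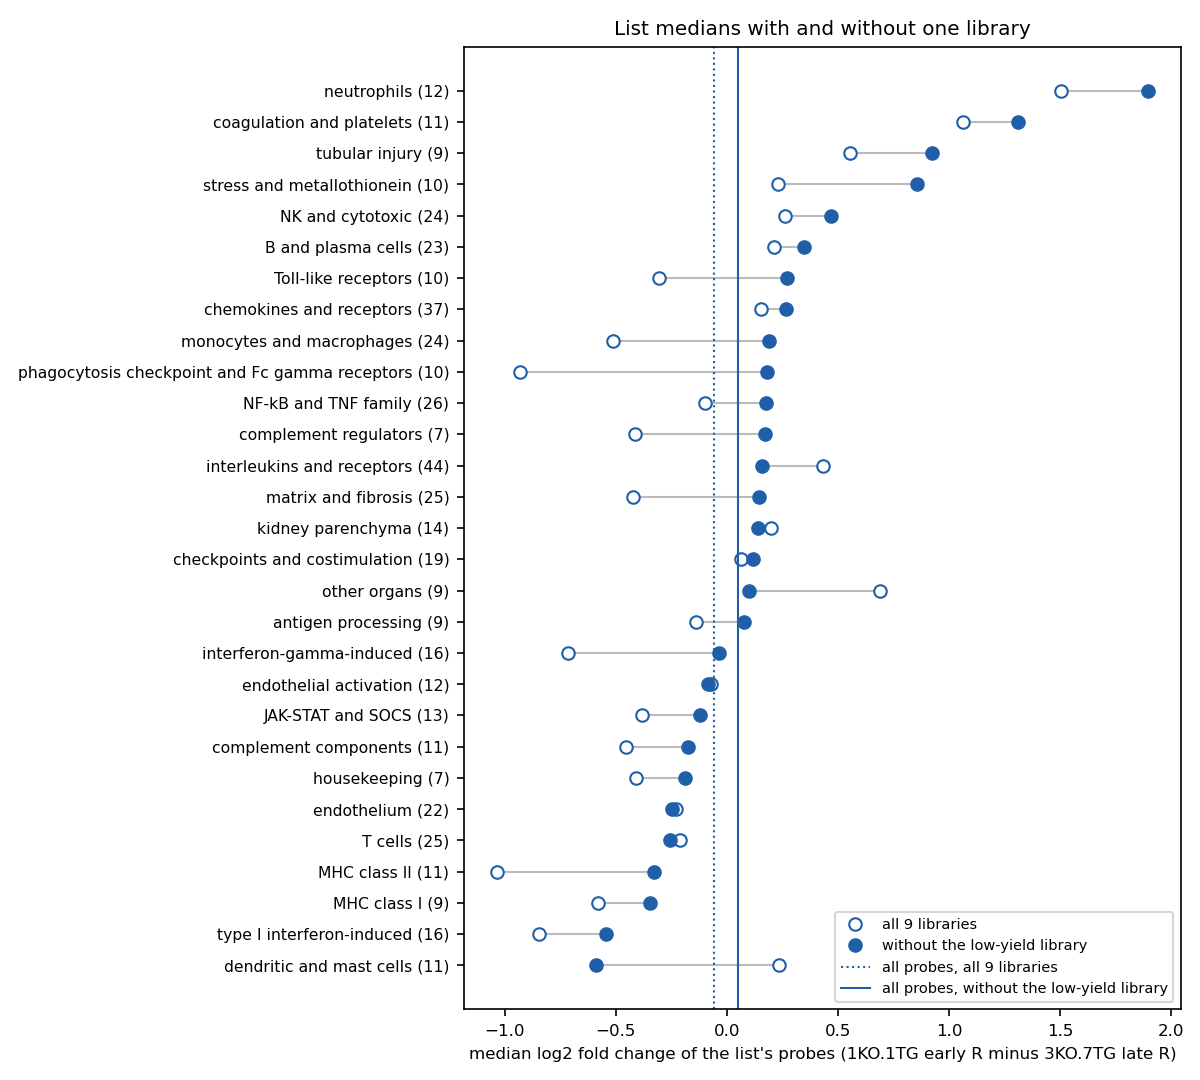
Median log2 fold change (early R minus late R) of each list of at least 2 measured probes, their number in brackets, over all 9 libraries (open points) and without the low-yield library (filled points); the lines mark the median over all 767 probes in either fit. The transgene candidates, at -3.18 without the low-yield library, are left out for scale. Neutrophil and coagulation lists lie highest in both fits, and among the largest shifts between the fits are those of the phagocytosis, MHC class II and dendritic and mast cell lists.

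Over the whole panel the libraries sorted only in part by group. Across the 767 probes, early R replicate 1 had a Spearman correlation of 0.958 with late R replicate 1 and of 0.924 with early R replicate 2, below its values with all 3 late R libraries. Early R replicate 2 had 0.904 to 0.908 with late R, below its value with early R replicate 1, and the 3 late R libraries had 0.941 to 0.953 among themselves. By median absolute log2 difference, early R replicate 1 lay 0.422 from late R replicate 1 and 0.592 from early R replicate 2. It lay 0.625 and 0.599 from late R replicates 2 and 3. With the low-yield library the correlations were 0.526 to 0.616. These are descriptions across probes, which are not independent replicates. The median SD of a probe across 3 replicates was 1.16 log2 units in early R and 0.498 in late R. For early R replicates 1 and 2 alone it was 0.419, but an SD from 2 values tends to fall below one from 3. The median absolute log2 difference was 0.592 between early R replicates 1 and 2 and 0.524 to 0.602 between late R libraries.

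Early R replicates 1 and 2 differed by over 2-fold for 236 of 767 probes, 143 of them higher in replicate 2 and 93 higher in replicate 1. The widest gaps, named after their values were seen, were in chemokines that draw leukocytes: CCL20 was 159-fold and CXCL8 120.1-fold higher in replicate 2. LCN2, the neutrophil and tubular lipocalin, was 33.8-fold and IGHG3, an immunoglobulin G heavy chain, 26.99-fold higher there. On the other side HLA-G was 87.99-fold, AQP2 15.5-fold and UMOD 12.3-fold higher in replicate 1. Replicate 2 also had the highest balance of macaque to pig signal among the 6 libraries, -0.56 against -2.16 in replicate 1; its part in these gaps was not tested. In late R, HLA-G also varied widely, from 18.6 to 1076 CPM. That span is narrower than the gap between early R replicates 1 and 2, so they cannot both lie within it.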

How the data were processed

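RNA from 9 formalin-fixed renal samples had been counted on 767 nCounter probes, 758 for genes of the panel and 9 marked for macaque or pig. The deposited values are log2 values; scanner settings, quality flags and any normalization by the authors are not given in the sources used here, and per the labels' protocols RNA had to pass an absorbance ratio threshold. The deposited log2 values gave whole numbers for 100% of entries when 2 was raised to them (tolerance 1e-04, smallest 1), and these were taken as counts, with no probe left out. The sources do not say if 1 had been added first.

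Counts were scaled by trimmed-mean factors (trims 0.3 and 0.05), which ranged from 0.761 to 2.71, and tested in limma 3.58.1 (R 4.3.3) with voom (offset 0.5), lmFit and eBayes over 3 group means. All 9 libraries share one estimate of the spread, and without the low-yield library the 2 early R libraries are assumed to vary like the others. P-values were two-sided and adjusted by Benjamini-Hochberg over all probes, called at 0.05. Single values per sample were compared by exact permutation. Counting error is small for probes above background, and in the low-yield library it is large.

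The members and lists were chosen with earlier results of these data known; the transgene candidates came from general knowledge of donor pigs. Named probes are, per direction, the 10 with the smallest unadjusted p in either fit, every called probe, the transgene candidates, up to 4 members per list with the smallest p without the low-yield library, and cell type markers. Of 31 lists, 438 different genes were measured, 45 of them in more than 1 list. The replicate number was not used as a block. For equal numbers in the 2 groups, the correlations of deviations from the group means were -0.12, 0.20 and -0.21. For unequal numbers they ran from -0.41 to 0.37. The early R mean holds the low-yield library, so these values cannot show whether the numbers pair the libraries. Alternatives covered scaling, background, offset, filter, prior, weights, the groups in the fit, a replicate block and each library left out. Probe sequences were not used here. Results for a few probes are not reported here.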

Additional observations from a re-analysis of the deposited data

How the results depend on the processing

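The count of probes called lower stayed between 2 and 5 over 24 alternatives with and 23 without the low-yield library. The count of 2 came with the log2 values as deposited and the low-yield library in the fit, where CD47 lost its call (limma adjusted p = 0.200); CD46, CD47 and THBD were called in all other fits run. With the low-yield library, the count of probes called higher was 1 (PPBP) with total counts only, and it ran from 0 to 6 with 1 library left out, 6 being without early R replicate 1; the lower count ran from 3 to 4. Without the low-yield library, the higher count was 0 under scaling on housekeeping probes, pig reference probes or total counts, with the values as deposited, and with only the 2 groups compared; with 1 more library left out it ran from 0 to 18 and the lower count from 3 to 5, both highest without early R replicate 1. Whether the replicate numbers pair the libraries is not known. As a replicate block they gave 3 called probes with the low-yield library (CD46, CD47, THBD) and 4 without it (CD46, CD47, IGKC, THBD), PPBP at a limma adjusted p of 0.120. The species index difference turned to -0.35 without early R replicate 2 and -0.22 without late R replicate 1, the lowest and highest values with 1 library left out being -0.35 and 0.63. The median of all probes moved to 0.38 under scaling on pig probes and to -1.40 with values as deposited, with the low-yield library in the fit.

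No log2 fold change that turned sign had been called in the fit over all 9 libraries or without the low-yield library. The cause was not tested. Adding the low-yield library gave -0.94 for APOE, -0.33 for C5AR1, -1.14 for CD14, -0.41 for CD59, -0.39 for GAPDH, -0.17 for GZMA, -0.27 for IDO1, 0.065 for KAAG1, -0.15 for S100A8, -0.19 for SOD2, -0.47 for TIMP1 and -0.63 for TLR4. Without that library and 1 more left out, sign changes came without early R replicate 2, and for NPPB without early R replicate 1; the ranges were -0.29 to 1.53 for CD14, -0.53 to 1.32 for CD55, -0.38 to 0.72 for CD59, -0.32 to 6.59 for CXCL8, -5.35 to 1.10 for HLA-G, -0.74 to 0.22 for MCM6, -0.25 to 1.03 for NPPB, -0.21 to 2.96 for TIMP1 and -3.16 to 0.45 for UMOD. Scaling on pig probes gave 0.089 for HPRT1, 0.13 for MCM6 and 0.017 for PSMB8. With the low-yield library and values as deposited CEACAM3 was at -0.10, NOTCH1 at -0.083, PRF1 at -0.44, SIGLEC5 at -0.0033 and CD55 at -1.44; CD55 was at -0.0090 with a quality weight per library and ran from -0.51 (without early R replicate 2) to 0.69 with 1 library left out, below 0 also without late R replicate 1 (-0.02). CD59 was at 0.10 under housekeeping scaling and 0.080 with total counts, and ran from -0.91 to 0.17 with 1 library left out. Depth limits the low-yield library most, where 79.5% of probes did not exceed 17 counts, against 15% to 24% in the others.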
